A study of Arabidopsis thaliana with 4 samples.

Results

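Cyclins, the cyclin-dependent kinases (CDKs) they activate and the inhibitor proteins that hold these kinases back are encoded by 51 Arabidopsis thaliana genes whose primary symbol begins with CYCA, CYCB, CYCD, CYCH, CYCT, CYCP, CDKA, CDKB, CDKC, CDKD, KRP or SMR, or is SIM or ICK1. Of these, 50 had a probe on the array and 46 were tested, among 20454 genes tested in all. A probe was used if the scanner software marked it well above background, in the salt or the untreated channel, on at least 2 of the 4 arrays. CYCD5;1 had no probe, and the probes of CYCA3;3, CYCD7;1, CYCT1;1 and CYCP4;3 missed that mark. CYCP4;3 passed it on 1 array and lay just outside. CYCP3;2 passed it on 2 arrays, in the 2 h salt channel only, and lay just inside. No gene carries a primary symbol that begins with CDKA or SMR, so a further 12 genes of the same families, found only through a synonym, were kept apart, and 11 of them were tested.

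Progression through the plant cell cycle depends on CDKs that are active only when bound to a cyclin. D-type cyclins with CDKA;1 open the cycle in response to hormones and sugar, A-type cyclins act from S phase onward, and B-type cyclins with the plant-specific CDKB kinases drive entry into mitosis. Inhibitors of the KRP (Kip-related protein) and SIM/SMR families bind these complexes, and cells that stop dividing may go on to duplicate their DNA without mitosis. T- and H-type cyclins with CDKC and CDKD kinases act mainly in transcription and in switching on other CDKs.

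The samples were whole seedlings of the Col-0 ecotype, 14 days after germination, grown at 22 °C in cycles of 8 h of light and 16 h of dark. The treated groups had spent 2 h or 5 h on paper wetted with NaCl solution (300 mM), with 2 arrays for each time, and the control was 0 h of this treatment. Each array held salt RNA in Cy5 and 0 h RNA in Cy3, with no dye swap, and the 0 h sample is not numbered, so it was counted as 1 control sample. Seedlings moved to paper without NaCl were not analysed here, so salt, the transfer and the time of day cannot be told apart. In a whole seedling, fewer cells of a type and less RNA per cell cannot be told apart either.

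On the 4 arrays the median spot signal was 342 to 372 in the salt channel and 252 to 282 in the 0 h channel, over backgrounds of 52.5 to 54 and 33 to 37.5. Between 70.5% and 72.4% of spots were well above background in a channel, and the number of saturated spots was 0. The correlation across genes, which do not count as replicates, was 0.9897 for the pair of 2 h arrays and 0.9954 for the pair of 5 h arrays. A log2 ratio below is salt over 0 h on 1 array after background correction and loess normalization, and a log2 change is the mean of 2 arrays ± limma's moderated SE. A gene was called at a Benjamini-Hochberg adjusted p of 0.05 from limma, over all genes. Testing the ratio against 0 leaves out the spread of the control, and the dye bias of a probe cannot be told apart from salt except in 5 h against 2 h, where it drops out. Those p-values reflect the spread between arrays of 2 biological replicates, per the design text.

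After 2 h of salt, 15 of the 46 members were higher than at 0 h (32.6%, against 41.4% of all genes tested) and 23 were lower (50%, against 40.4% of all genes). Their median log2 change was -0.11, while the median of all genes was 0.00. Falls of at least 2-fold were 2 of 46, in CYCA1;1 and CYCP4;1 (4.35%, against 2.33% of all genes), and 1 member, CYCA1;2, rose by at least 2-fold, against 9.73% of all genes. After 5 h, 11 members were higher (23.9%, against 44.1% of all genes) and 28 were lower (60.9%, against 43.6%). At that time 12 members were at least 2-fold lower (26.1%, against 7.27% of all genes), 0 were at least 2-fold higher (against 13.6%), and the median log2 change was -0.54. From 5 h against 2 h, 8 members were higher (17.4%, against 33.5% of all genes) and 30 were lower (65.2%, against 38.8%). Falls of at least 2-fold in that comparison numbered 9 (19.6%, against 3.43% of all genes), rises of that size 0 (against 4.32%), and the median difference was -0.46, beside -0.03 for all genes. Both salt comparisons share the 0 h control.

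**Figure D1:**
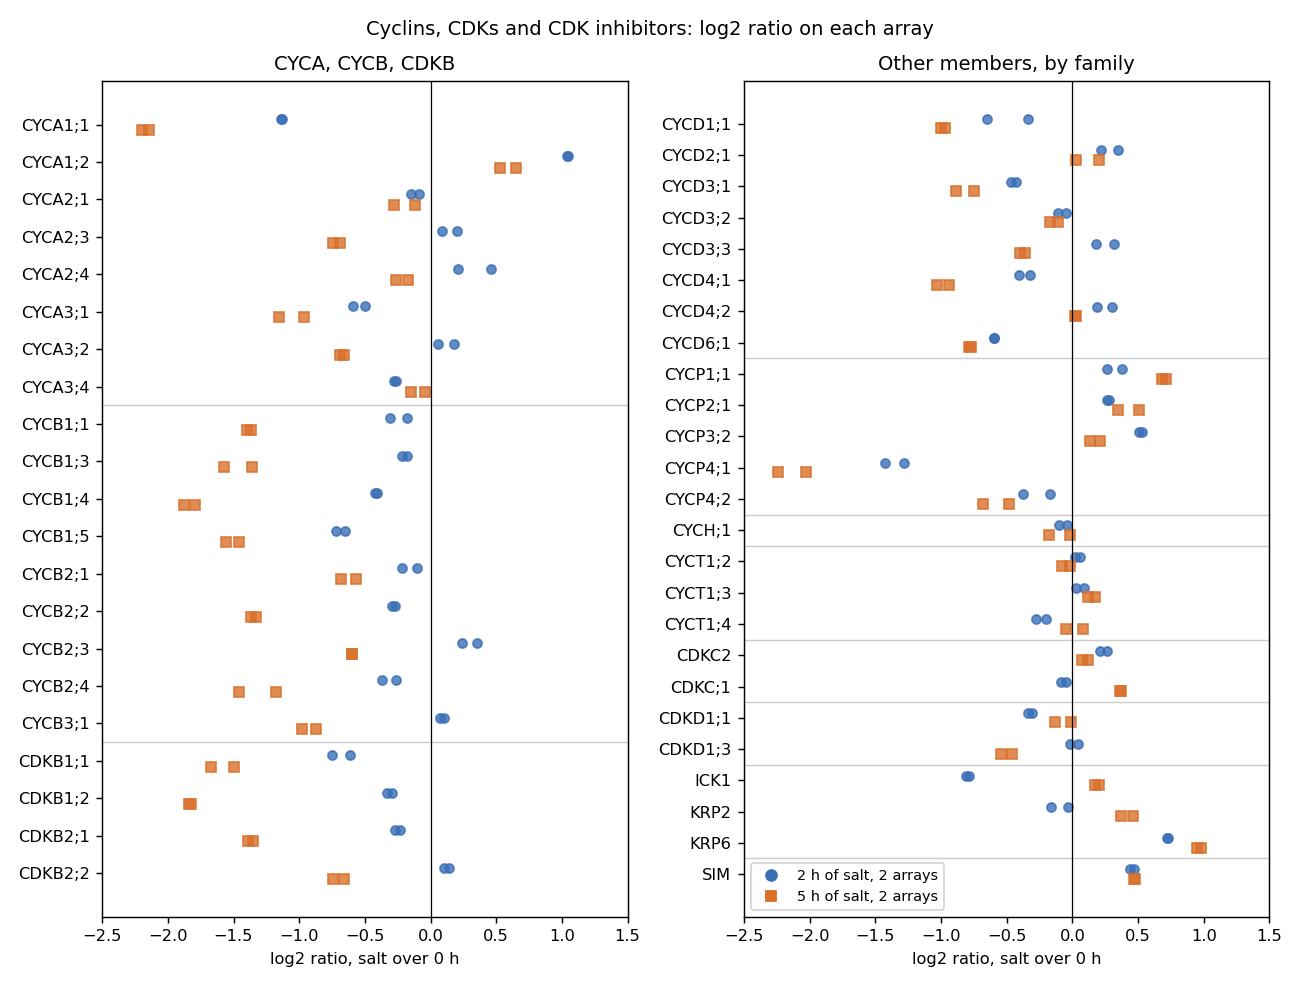
Log2 ratio of salt over 0 h (x axis) on each array for each tested member (y axis), blue circles for the 2 h arrays and orange squares for the 5 h arrays, with families parted by grey lines. All CYCB and CDKB genes lie left of 0 at 5 h, while KRP6 lies near 0.72 at 2 h and 0.97 at 5 h.

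B-type cyclins, which activate CDKs for entry into mitosis and are destroyed at its end, fell as a family at 5 h. All 9 tested CYCB genes were lower at 5 h (100%, against 43.6% of all genes), with a median log2 change of -1.35. In 6 of them the fall was at least 2-fold (66.7%, against 7.27% of all genes). At 2 h, 7 were lower and 1 was higher (77.8% and 11.1%, against 40.4% and 41.4%), and the median was -0.25. CYCB1;4 (AT2G26760) had log2 ratios of -0.42 and -0.41 on the 2 h arrays and -1.88 and -1.79 on the 5 h arrays. Its 5 h change of -1.84 ± 0.037 corresponds to a level 3.57-fold lower (adjusted p = 2.3e-09, limma). Both 5 h arrays thus stood well apart from both 2 h arrays, and 5 h minus 2 h was -1.42 ± 0.053 (adjusted p = 4.51e-07, limma).

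CYCB1;1 (AT4G37490), widely used as a reporter of cells in G2 and mitosis, gave processed signals of 117 and 93.1 after 5 h of salt, against 516 and 429 in the 0 h channel of the same arrays. On the 2 h arrays its signals were 235 and 243 in salt, against 315 and 391 at 0 h. The log2 ratios were -0.18 and -0.31 at 2 h and -1.37 and -1.40 at 5 h, which again did not overlap, and the 5 h change was -1.38 ± 0.042 (adjusted p = 1.94e-08, limma). CYCB1;3 (AT3G11520), of the same subgroup, had -0.18 and -0.22 at 2 h and -1.36 and -1.57 at 5 h. CYCB1;5 (AT1G34460) had moved further by 2 h than the other CYCB members, with log2 ratios of -0.65 and -0.72, and stood at -1.56 and -1.46 at 5 h.

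In the CYCB2 subgroup the 5 h ratios were lower than the 2 h ratios in every member and on every array. CYCB2;2 (AT4G35620) had -0.29 and -0.27 at 2 h and -1.33 and -1.37 at 5 h. CYCB2;4 (AT1G76310) had -0.26 and -0.37 at 2 h and -1.46 and -1.18 at 5 h. CYCB2;3 (AT1G20610) differed from these in sign at 2 h, with 0.24 and 0.35, and had -0.60 on each 5 h array. CYCB2;1 (AT2G17620) was not well above background in the salt channel of either 5 h array, so its fall there has no exact size. Its log2 ratios were -0.68 and -0.57, 1.54-fold lower by the fitted change (adjusted p = 3.16e-06, limma). A bound was sought from the dimmest signal still well above background on the array or the dim probe's own, whichever is higher. For CYCB2;1, CYCA2;1, SMR4 and CYCP3;2 it equalled the fitted fold, so it sets no separate limit. CYCB3;1 (AT1G16330), the only member of the third subgroup, had 0.10 and 0.07 at 2 h, which was not called (adjusted p = 0.0818, limma), and -0.98 and -0.87 at 5 h.

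CDKB kinases, whose expression peaks from G2 to mitosis, moved in the same direction as the B-type cyclins at 5 h. All 4 were lower at 5 h (100%, against 43.6% of all genes), with a median log2 change of -1.48. In 3 of them the fall was at least 2-fold (75%, against 7.27% of all genes). At 2 h, 3 were lower and 1 was higher (75% and 25%, against 40.4% and 41.4%), with a median of -0.28. CDKB1;2 (AT2G38620) had log2 ratios of -0.29 and -0.33 at 2 h and -1.84 and -1.82 at 5 h. Both 5 h arrays lay far below both 2 h arrays, with a 5 h minus 2 h difference of -1.52 ± 0.049 (adjusted p = 2.85e-07, limma). A further kept probe of the gene gave smaller values, -0.36 at 2 h and -1.38 at 5 h, in the same direction.

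CDKB1;1 (AT3G54180), which with CYCA2;3 restrains endoreduplication and acts in the divisions of the stomatal lineage, gave signals of 223 and 199 after 5 h of salt, against 1010 and 868 at 0 h on the same arrays. Its log2 ratios were -0.75 and -0.61 at 2 h and -1.67 and -1.50 at 5 h, so the gene was already the lowest CDKB at 2 h. CDKB2;1 (AT1G76540), a kinase of the shoot meristem, had -0.27 and -0.23 at 2 h and -1.35 and -1.39 at 5 h. CDKB2;2 (AT1G20930), its closest paralogue, had 0.14 and 0.10 at 2 h and -0.74 and -0.66 at 5 h. Probes of such close copies may bind each other's RNA, so both CDKB1 genes, both CDKB2 genes and the near relatives within the CYCA, CYCB and CYCD groups are uncertain as single genes.

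**Figure D2:**
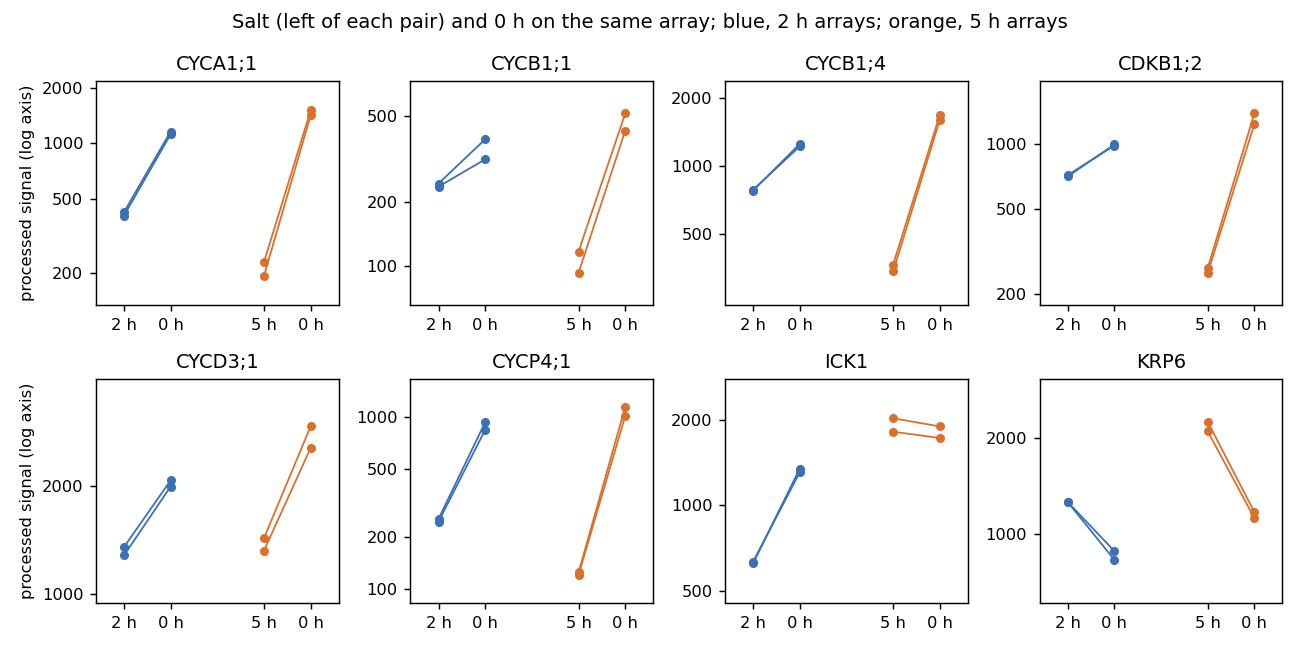
Processed signal (log axis) in salt and at 0 h on each array for selected members, with a line joining the 2 channels of an array. CYCB1;1 read 117 and 93.1 in the salt channel at 5 h, below the 516 and 429 of the 0 h channel.

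A-type cyclins, which act from S phase to early mitosis, went in both directions at 2 h, when 4 of 8 were higher and 4 were lower (50% each, against 41.4% and 40.4% of all genes). At 5 h, 1 was higher and 6 were lower (12.5% and 75%, against 44.1% and 43.6% of all genes), with a median log2 change of -0.44. CYCA1;1 (AT1G44110) had log2 ratios of -1.14 and -1.13 at 2 h and -2.14 and -2.20 at 5 h, a 5 h change of -2.17 ± 0.036 or 4.5-fold lower (adjusted p = 8.27e-10, limma). Its signals were 228 and 192 after 5 h of salt, against 1510 and 1420 at 0 h on those arrays. CYCA1;2 (AT1G77390), also called TAM and best known for its role in male meiosis, went the other way, with 1.04 and 1.05 at 2 h and 0.53 and 0.65 at 5 h. It rose 2.07-fold at 2 h (adjusted p = 1.46e-07, limma) and was the only A-type cyclin called higher at 5 h.

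In the CYCA2 subgroup, which limits endoreduplication, CYCA2;3 (AT1G15570) had 0.09 and 0.20 at 2 h and -0.74 and -0.69 at 5 h. CYCA2;4 (AT1G80370) had 0.46 and 0.21 at 2 h and -0.26 and -0.17 at 5 h. Both were therefore called higher at 2 h and lower at 5 h. CYCA2;1 (AT5G25380) was near the detection limit. Its salt signal was not well above background on either 5 h array, so its fall there has no exact size. Its 5 h log2 ratios were -0.12 and -0.28, 1.15-fold lower by the fitted change.

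Among CYCA3 genes, A-type cyclins of S phase, CYCA3;1 (AT5G43080) had -0.50 and -0.59 at 2 h and -0.96 and -1.15 at 5 h, 2.08-fold lower at 5 h (adjusted p = 3.14e-07, limma). CYCA3;2 (AT1G47210) had 0.06 and 0.18 at 2 h and -0.69 and -0.66 at 5 h. Its other kept probe gave 0.04 at 2 h and -0.37 at 5 h, and with the mean of both probes the 2 h rise was not called (0.082, adjusted p = 0.156, limma). CYCA3;4 (AT1G47230) differed from both, with -0.28 and -0.26 at 2 h and -0.15 and -0.04 at 5 h. Its 5 h minus 2 h difference of 0.18 ± 0.055 made it the only CYCA gene called higher at 5 h than at 2 h (adjusted p = 0.0199, limma). That call was lost with median centring in place of loess (0.17, adjusted p = 0.0552, limma). Without the second 5 h array the difference was 0.13. The 5 h change of CYCA3;4 against 0 h was not called (-0.09, adjusted p = 0.0525, limma). By the Feature Extraction ratio, described next, it was -0.23 and called lower (adjusted p = 0.00823, limma).

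The small rises at 2 h depend on how the dyes were balanced. Taken as Feature Extraction scaled them, the ratios of all genes had medians of -0.14 at 2 h and -0.13 at 5 h, and CYCA2;3 (-0.01), CYCA3;2 (-0.03) and CDKB2;2 (-0.03) were then on the other side of 0 at 2 h and not called. On that scale 10 members were higher and 28 lower at 2 h, and 7 were higher and 33 lower at 5 h, beside 6588 genes higher and 10350 lower in all at 2 h, and 7644 higher and 10210 lower at 5 h. The falls were larger on that scale, which differs in background subtraction, dye scaling and the absence of an added offset. The median CYCB change at 5 h was -2.15 there and the median CDKB change -1.95, and 20 members were at least 2-fold lower at 5 h. With loess kept and only the offset lowered to 10, that number was 17. The share of all genes at least 2-fold lower was not counted in these settings, so these numbers cannot be set against it.

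**Figure D3:**
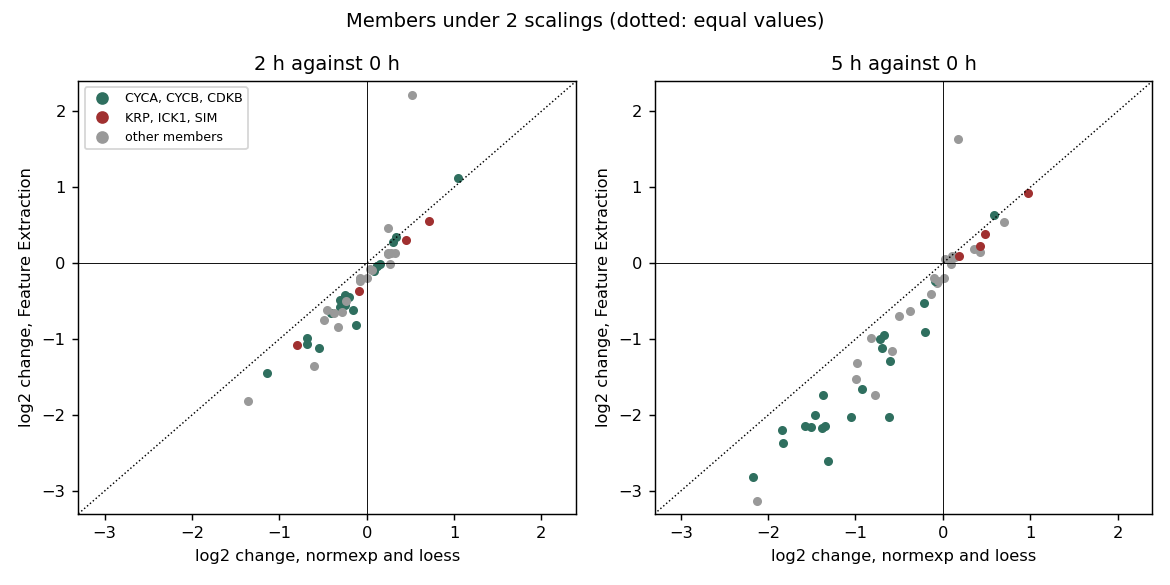
Log2 change of each tested member after loess (x axis) and as the ratio made by Feature Extraction (y axis), at 2 h and at 5 h, with the line of equality. Most points lie below the line, and some of the smallest 2 h rises fall on the other side of 0.

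D-type cyclins, which with CDKA;1 phosphorylate the retinoblastoma-related protein and open the cycle, were lower at 5 h in 6 of 8 cases (75%, against 43.6% of all genes). After loess none fell by 2-fold, against 7.27% of all genes, and the median log2 change was -0.58. On the Feature Extraction scale the median was -0.81. CYCD1;1, CYCD4;1 and CYCD6;1 were 2.48-fold, 2.87-fold and 3.31-fold lower on it, where the share of all genes with such falls was not counted. At 2 h, 4 were lower and 3 were higher (50% and 37.5%, against 40.4% and 41.4%). CYCD4;1 (AT5G65420), linked to lateral root initiation, had log2 ratios of -0.41 and -0.32 at 2 h and -0.94 and -1.03 at 5 h. CYCD1;1 (AT1G70210) had -0.34 and -0.65 at 2 h and -1.0 and -0.97 at 5 h. Both were close to 2-fold lower at 5 h, at 1.98-fold and 1.97-fold (adjusted p = 1.24e-07 and 2.11e-06, limma), and their 5 h ratios lay below all their 2 h ratios.

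CYCD3;1 (AT4G34160), a cytokinin-responsive cyclin of young leaves, had -0.47 and -0.43 at 2 h and -0.89 and -0.75 at 5 h. CYCD3;3 (AT3G50070), its relative, had 0.18 and 0.32 at 2 h and -0.36 and -0.40 at 5 h. CYCD3;2 (AT5G67260), the third of that subgroup, stayed near 0, with -0.05 and -0.11 at 2 h and -0.17 and -0.11 at 5 h. The 3 CYCD3 genes thus gave 3 different courses, and only the second was called in opposite directions at the 2 times.

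CYCD6;1 (AT4G03270) acts in the formative division of root ground tissue, where the transcription factors SHR and SCR switch it on. It had log2 ratios of -0.60 on each 2 h array and -0.79 and -0.77 at 5 h, so most of its fall was present at 2 h. Its signals were 51.6 and 58.6 after 5 h of salt, against 186 and 179 at 0 h on those arrays. SHR changed by -0.53 at 2 h and -0.90 at 5 h, and SCR by -0.89 at 2 h and -0.40 at 5 h, all called. Whether these changes bear on CYCD6;1 was not tested. CYCD2;1 (AT2G22490) had 0.22 and 0.35 at 2 h and 0.20 and 0.03 at 5 h, and CYCD4;2 (AT5G10440) had 0.19 and 0.30 at 2 h and 0.03 and 0.02 at 5 h. Neither of these was called at 5 h (adjusted p = 0.073 and 0.553, limma).

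P-type cyclins resemble a yeast cyclin of phosphate signalling, and their role in Arabidopsis is less settled. CYCP4;1 (AT2G44740) had log2 ratios of -1.28 and -1.43 at 2 h, the lowest of all members at that time, and -2.24 and -2.03 at 5 h, 4.39-fold lower (adjusted p = 1.08e-08, limma). Its signals were 125 and 121 after 5 h of salt, against 1140 and 1010 at 0 h on those arrays. CYCP4;2 (AT5G61650) had -0.17 and -0.38 at 2 h and -0.48 and -0.68 at 5 h. CYCP1;1 and CYCP2;1 were higher at both times. The first of these (AT3G63120) had 0.26 and 0.38 at 2 h and 0.71 and 0.68 at 5 h. The second (AT3G21870) had 0.26 and 0.28 at 2 h and 0.51 and 0.35 at 5 h. On the Feature Extraction scale its values were -0.01 at 2 h and 0.15 at 5 h, neither of them called (adjusted p = 0.955 and 0.153, limma). CYCP3;2 (AT3G60550) was not well above background at 0 h on any array, and was kept only through its 2 h salt channel. Its 2 h ratios of 0.51 and 0.53, a fitted 1.43-fold, thus have no exact size, and its calls are no separate support for a rise. At 5 h both channels were dim, so no fold or direction is given there. Its fitted ratios are nevertheless among the calls counted as higher at 2 h and at 5 h and lower in 5 h against 2 h.

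**Figure D4:**
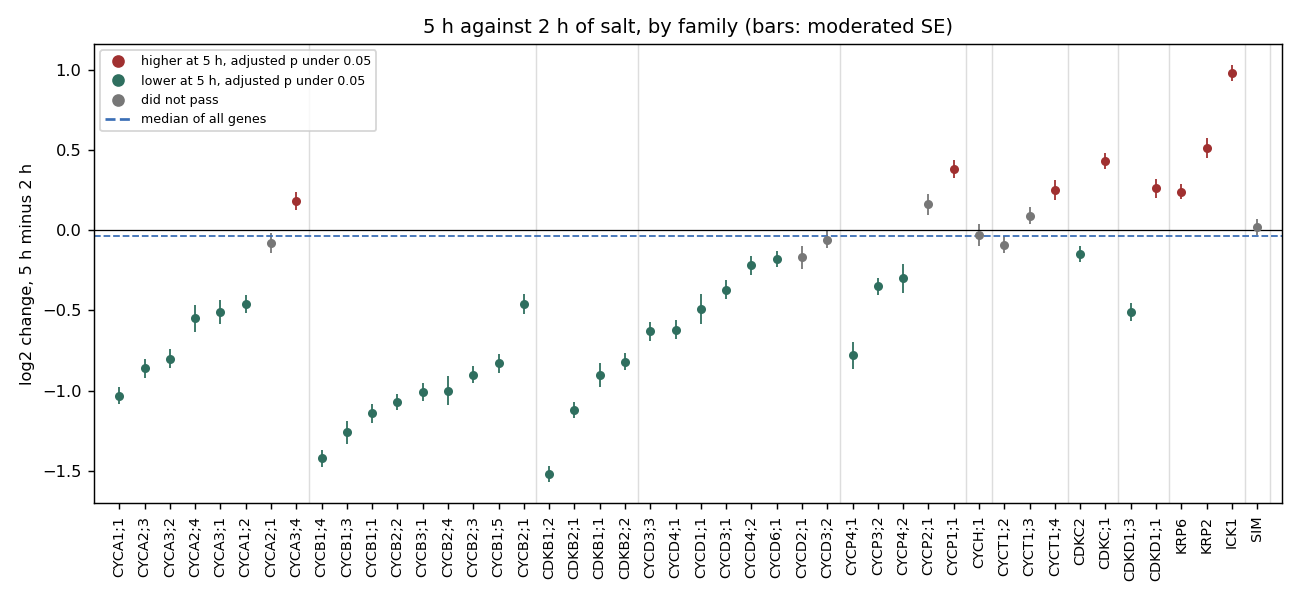
Log2 change at 5 h minus that at 2 h (y axis, with limma's moderated SE as the bar) for each tested member (x axis), grouped by family and coloured by whether it was called higher, lower or neither, with a dashed line at the median of all genes. CDKB1;2 is at -1.52, low in the plot, and ICK1 at 0.98, high in it.

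Among the 8 tested genes of the transcriptional and CDK-activating kinases and their cyclins, no change after loess reached 1.5-fold in either salt comparison. On the Feature Extraction scale CDKD1;1 stood at -0.84 at 2 h, and CDKD1;3 at -0.69 at 5 h, 1.61-fold lower. CYCH;1 (AT5G27620), the cyclin of the CDK-activating kinase, had log2 ratios of -0.04 and -0.10 at 2 h and -0.02 and -0.18 at 5 h and was not called in any comparison. CDKD1;3 (AT1G18040), a CDK-activating kinase, had 0.04 and -0.02 at 2 h and -0.46 and -0.54 at 5 h. Its other kept probe gave -0.02 at 2 h and -0.34 at 5 h. CDKD1;1 (AT1G73690), its relative, had -0.34 and -0.31 at 2 h and -0.01 and -0.13 at 5 h, the reverse order in time. CDKC;1 (AT5G10270), which pairs with T-type cyclins to act on RNA polymerase II, had -0.09 and -0.05 at 2 h and 0.36 and 0.37 at 5 h, 1.29-fold higher at 5 h (adjusted p = 1.99e-05, limma). CDKC2 (AT5G64960), its relative, had 0.21 and 0.26 at 2 h and 0.12 and 0.07 at 5 h, and the 5 h value was -0.01 on the Feature Extraction scale and lost its call without either 5 h array. Further kept probes of CDKC2 gave 0.35 and 0.30 at 2 h and 0.20 and 0.10 at 5 h. The 3 tested CYCT genes had changes between -0.24 and 0.14 at both times: CYCT1;4 was lower at 2 h, CYCT1;3 was higher at 5 h, and CYCT1;2 was not called.

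Of the 4 CDK inhibitors found by symbol, all were higher at 5 h: the 3 KRP-family members, with a median log2 change of 0.42, and SIM. Of all genes, 44.1% were higher at that time. The inhibitors found by synonym, described further on, went in both directions. KRP6 (AT3G19150), best known from pollen development, had log2 ratios of 0.72 and 0.73 at 2 h and 0.95 and 0.98 at 5 h, 1.95-fold higher at 5 h (adjusted p = 5e-08, limma). Its signals were 2250 and 2100 after 5 h of salt, against 1170 and 1120 at 0 h on those arrays. KRP2 (AT3G50630), an inhibitor of lateral root initiation, had -0.16 and -0.03 at 2 h and 0.37 and 0.46 at 5 h. Its 2 h change was not called in the main fit (adjusted p = 0.0855, limma). On the Feature Extraction scale KRP2 was -0.37 at 2 h and called lower (adjusted p = 0.00166, limma), beside 0.23 at 5 h. With that scale centred on the median it was -0.25 at 2 h, also called (adjusted p = 0.00534, limma). SIM (AT5G04470), which promotes endoreduplication in trichomes, had 0.47 and 0.44 at 2 h and 0.47 and 0.48 at 5 h. Its 2 times did not differ by limma's test (5 h minus 2 h 0.02 ± 0.048, adjusted p = 0.672). The other kept probe of SIM gave 0.28 at 2 h and 0.36 at 5 h.

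ICK1 (AT2G23430), also called KRP1, reversed between the times. Its signals were 633 and 625 after 2 h of salt, against 1310 and 1350 at 0 h on the same arrays. On the 5 h arrays they were 2030 and 1820 in salt, against 1900 and 1730 at 0 h. The log2 ratios were -0.79 and -0.81 at 2 h and 0.17 and 0.20 at 5 h, so the gene was 1.74-fold lower at 2 h and slightly higher at 5 h. Its 5 h minus 2 h difference of 0.98 ± 0.049 was the largest positive one among members (adjusted p = 1.63e-06, limma). The 5 h rise alone, 0.18, was 0.09 and not called on the Feature Extraction scale.

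The 11 tested genes found by synonym include the central kinase CDKA;1 and further inhibitors. At 2 h, 3 were higher and 7 lower (27.3% and 63.6%, against 41.4% and 40.4% of all genes). At 5 h, 4 were higher and 7 lower (36.4% and 63.6%, against 44.1% and 43.6%). CDKA;1 (AT3G48750), required throughout the cycle, had log2 ratios of -0.28 and -0.20 at 2 h and -0.39 and -0.43 at 5 h. Its 5 h change was -0.41 ± 0.038, beside -0.70 to -1.83 in the CDKB genes, and the difference between these genes was not tested. CYCB1;2 (AT5G06150) had -0.66 and -0.64 at 2 h and -1.91 and -1.76 at 5 h, and its 5 h mean of -1.84 was that of the lowest B-type cyclin above to 2 decimals. CYCA2;2 (AT5G11300) had 0.08 and 0.14 at 2 h and -0.39 and -0.27 at 5 h, and its 2 h call was lost without either 2 h array. The remaining cyclin and kinase, CYCT1;5 and CDKD;2, changed by no more than 0.21 in either direction at either time.

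Inhibitors reached by synonym did not share 1 direction. KRP7 (AT1G49620) had 0.75 and 0.78 at 2 h and 0.85 and 0.96 at 5 h, 1.87-fold higher at 5 h (adjusted p = 1.74e-07, limma). KRP5 (AT3G24810) had 0.36 and 0.46 at 2 h and 0.44 on each 5 h array. KRP3 (AT5G48820) was lower at both times, with -0.11 and -0.18 at 2 h and -0.39 and -0.54 at 5 h. Of the 6 KRP-family genes tested in both lists, 5 were thus higher at 5 h and KRP3 was lower. Its signals were 97.3 and 93 after 5 h of salt, against 187 and 176 at 0 h on those arrays.

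The 3 SMR genes tested, relatives of SIM, were lower at both times. SMR1 (AT3G10525), known as LGO for its role in making giant sepal cells, had -1.28 and -1.17 at 2 h and -0.37 and -0.38 at 5 h, a course that ran back toward 0. Its signals were 1390 and 1480 after 2 h of salt, against 3800 and 3730 at 0 h on those arrays. SMR7 (AT3G27630), which responds to oxidative stress and DNA damage, had -0.70 and -0.77 at 2 h and -0.68 and -0.78 at 5 h. SMR4 (AT5G02220), which acts in the stomatal lineage, had -0.15 and -0.19 at 2 h and -0.80 and -0.78 at 5 h. That is 1.73-fold lower at 5 h by the fitted change, with no exact size, since its salt signal there was not well above background. SMR5 had no probe.

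The other genes of the cell cycle were taken from lists of known components. Of 18 measured genes of the anaphase-promoting complex and the checkpoints (22 listed), 12 were lower and 2 higher at 2 h (66.7% and 11.1%). Of all genes, 40.4% were lower and 41.4% higher at 2 h, and 43.6% and 44.1% at 5 h. At 5 h, 14 genes of the list were lower and 1 higher (77.8% and 5.56%), with a median log2 change of -0.64. CDC20.1, an activator of that complex which marks B-type cyclins for destruction, had log2 ratios of -0.65 and -0.71 at 2 h and -2.56 and -2.69 at 5 h. CDC20.2, its copy, had -1.70 and -1.90 at 5 h, and the spindle checkpoint genes BUBR1 and MAD2 changed by -1.72 and -1.57 at 5 h. FZR2, an activator of the complex that promotes endoreduplication, was the 1 gene of the list called higher at 5 h. It had log2 ratios of 0.53 and 0.54 at 2 h and 0.82 and 0.75 at 5 h, and is named because it was the exception.

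Of 14 measured genes of mitosis and cytokinesis (17 listed), 11 were lower and 2 higher at 2 h (78.6% and 14.3%, against 40.4% and 41.4% of all genes). At 5 h, 12 were lower and 2 higher (85.7% and 14.3%, against 43.6% and 44.1%), with a median of -0.93. HIK, a kinesin needed for the cell plate to expand, had -0.77 and -0.71 at 2 h and -2.43 and -2.39 at 5 h. KN (KNOLLE), the syntaxin that fuses membrane vesicles into the cell plate, had -0.76 and -0.84 at 2 h and -2.00 and -2.02 at 5 h. KINESIN-12B and POK2, kinesins of the dividing cell's microtubule array and of its division plane, changed by -1.82 and -1.68 at 5 h. TES, a kinesin that overlaps HIK in function, was higher, with 1.00 and 1.07 at 5 h. Of 23 measured S-phase genes (25 listed), 20 were lower (87%) and 0 higher at 2 h. At 5 h, 22 were lower and 1 higher (95.7% and 4.35%), with a median of -1.44. By at least 2-fold, 17 were lower at 5 h (73.9%, against 7.27% of all genes). TSO2, a ribonucleotide reductase subunit that supplies DNA building blocks, had -1.23 and -1.18 at 2 h and -2.08 and -2.15 at 5 h. MCM7, a subunit of the replicative helicase, had -0.42 and -0.50 at 2 h and -1.84 and -1.87 at 5 h, and MCM2, of the same complex, changed by -1.79 at 5 h. RNR2A, another subunit of the reductase, was the exception at 5 h, with -0.05 and -0.12 at 2 h and 0.71 and 0.67 at 5 h.

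The upstream regulators that were measured were called in shares close to those of all genes. E2FA, MYB3R3, MYB3R4, MYB3R5, TCX5 and TCX6 matched no single gene by name and so were not looked for on the array. ALY3 had no probe, and MYB3R1 alone stands for the MYB3R genes. Of 12 measured E2F, retinoblastoma and MYB3R genes (19 listed), 4 were higher and 6 lower at 2 h (33.3% and 50%, against 41.4% and 40.4% of all genes). At 5 h, 5 were higher and 5 lower (41.7% each, against 44.1% and 43.6%), with a median of -0.07. The higher ones included E2FB, MYB3R1 and ALY2, which changed by 0.87, 0.81 and 0.78 at 5 h, less than 2-fold. TSO1, a protein linked to the repression of cell cycle genes, had -0.49 and -0.46 at 2 h and -1.17 and -1.08 at 5 h. DEL1, an atypical E2F that holds back endoreduplication, had -0.31 and -0.28 at 2 h and -1.12 and -0.92 at 5 h. On every array both genes lay further below 0 at 5 h than at 2 h. Among 9 measured other cyclins, kinases and CDK subunits (13 listed, of which 1 is also among the synonym genes), 4 were higher and 3 lower at 2 h (44.4% and 33.3%). At 5 h, 4 were higher and 4 lower (44.4% each), again close to the shares of all genes. CDKG1, a kinase linked to splicing, had 2.15 and 2.26 at 2 h and 1.40 and 1.28 at 5 h. CKS2, a small protein that docks CDKs to their targets, had -0.29 and -0.45 at 2 h and -1.41 and -1.30 at 5 h.

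**Figure D5:**
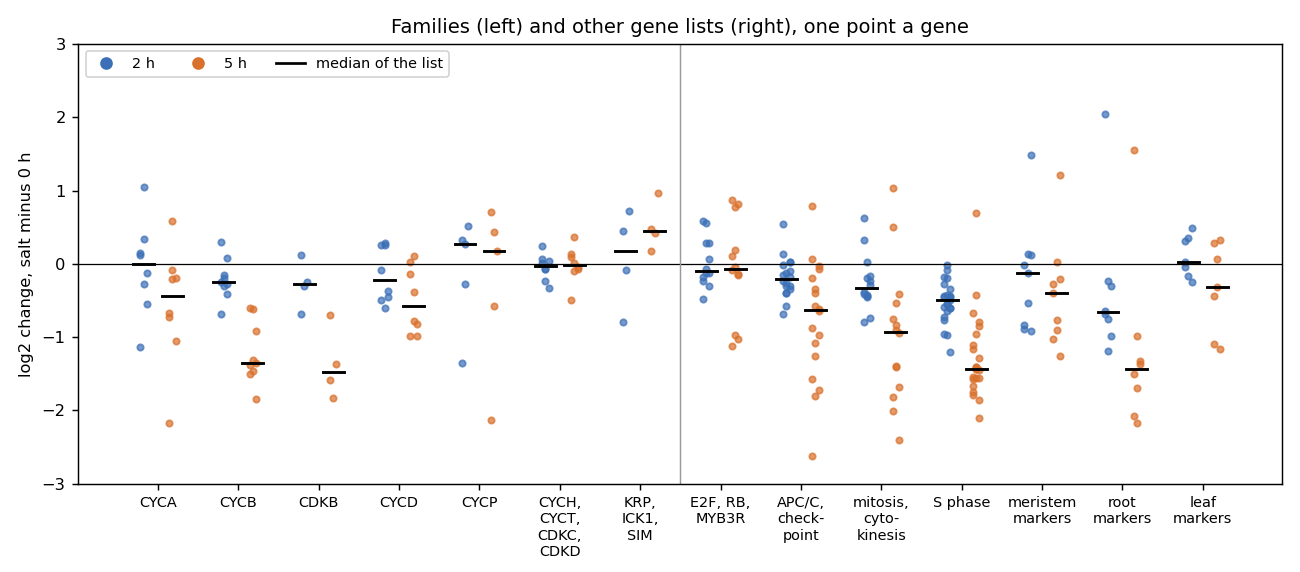
Log2 change of every measured gene, 1 point a gene, at 2 h (blue) and 5 h (orange) in the families (left) and other lists (right), with black bars at the list medians. The 5 h medians were -1.35 for CYCB, -1.48 for CDKB, -1.44 for S-phase genes and -1.43 for root markers, and -0.07 for the E2F, retinoblastoma and MYB3R list.

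The label whole seedling was checked against markers of leaf, root, meristem and stomatal lineage. Each sum of processed signal below is set against the 0 h channel of the same arrays, since signals were scaled within an array. Root markers moved with the mitotic genes: 7 of 8 were lower and 1 higher at both times (87.5% and 12.5%), with medians of -0.66 at 2 h and -1.43 at 5 h. Their sum was 7530 to 7960 after 2 h of salt, against 15400 to 15500 at 0 h, and 4190 to 4540 after 5 h, against 19700 to 21500 at 0 h. IRT1, an iron transporter of the root epidermis, was the exception, at 2.04 at 2 h and 1.55 at 5 h. Of 9 measured meristem markers (12 listed), 5 were lower and 3 higher at 2 h (55.6% and 33.3%). At 5 h, 7 were lower and 1 higher (77.8% and 11.1%), with a median of -0.40. Their sum was 9620 to 9830 after 2 h, against 14000 to 14200 at 0 h, and 9650 to 10600 after 5 h, against 17900 to 19900 at 0 h. Salt over 0 h, that sum was 0.688 to 0.694 at 2 h and 0.53 to 0.54 at 5 h. The defining shoot meristem genes CLV3 and WUS, and AIL6, were not measured. Of 9 stomatal lineage genes, 5 were lower at each time (55.6%), while 2 were higher at 2 h (22.2%) and 3 at 5 h (33.3%), beside the shares of all genes given above. Their sum over that at 0 h was 0.9 to 0.936 at 2 h and 0.936 to 0.972 at 5 h. Of 7 leaf markers, 2 were lower and 3 higher at 2 h (28.6% and 42.9%), and 4 were lower and 2 higher at 5 h (57.1% and 28.6%). Their sum over that at 0 h was 1.04 to 1.05 at 2 h and 0.812 to 0.818 at 5 h. The part of these markers in the falls of CYCA, CYCB, CDKB and CYCD genes was not tested.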

How the data were processed

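Per the file headers, the deposited array files give median intensity of each spot and of its surround in both dyes, a background-subtracted and dye-normalized intensity made by the scanner software, and the log10 ratio of those processed Cy5 over Cy3 values. The deposited series table holds log2 ratios, whose centring is not stated. Their medians over genes ran from -0.048 to -0.024, and they correlated with the log2 of the processed ratio at r of 0.9998 or 0.9999 on each array. Version 11.5.1.1 of Feature Extraction stands in the headers, whereas 9.3.2.1 stands in the submitters' processing notes.

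Ratios were computed from median intensities with limma 3.58.1 in R 4.3.3, by normexp (offset 50) and loess with control spots at weight 0 and outlier spots left out (14 to 19 an array). Spots of a probe were averaged and each gene was read from its brightest kept probe. Of 43603 probes, 34348 matched 1 gene of a RefSeq table used for names only. lmFit and eBayes ran on all 4 arrays (2 residual and 5.41 prior degrees of freedom), and 3 genes, none of them a member, lacked a ratio on some array. The method was tested on simulated data. The members and lists were chosen with earlier results of these data known. Every tested member could be named, with all array values for called changes of at least 1.5-fold, and genes of the other lists where called with at least a 2-fold change, at most 4 a list. The marker genes, FZR2, RNR2A, TES, E2FB, MYB3R1, ALY2, SHR and SCR were named beside this rule. In the other cell cycle lists, CYCC1;1, CYCC1;2, CYCL1, CDKG2, APC2, CDC27A, BUB1, TPX2, PAKRP2, NUF2 and CDC6B also matched no single gene by name. They were not looked for on the array. The gene meant by APC1, a subunit of the anaphase-promoting complex, was matched by synonym, since that primary symbol names another protein, and it had no probe. Promoter motifs, which had been planned, were not analysed here.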

Additional observations from a re-analysis of the deposited data

Results flagged for a closer look

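The following genes had a 5 h change that differed from their 2 h change by limma's test of the difference (log2 change at 5 h minus that at 2 h, adjusted over all genes), 38 members and 8 genes found by synonym. Such calls were common: of all genes, 33.5% were higher and 38.8% lower. The shares were 17.4% and 65.2% of tested members, and 27.3% and 45.5% of tested synonym genes. Among B-type cyclins the differences were -1.42 in CYCB1;4, -1.26 in CYCB1;3, -1.19 in CYCB1;2, -1.14 in CYCB1;1, -1.07 in CYCB2;2, -1.01 in CYCB3;1, -1.0 in CYCB2;4, -0.90 in CYCB2;3, -0.83 in CYCB1;5 and -0.46 in CYCB2;1. Among kinases of mitosis they were -1.52 in CDKB1;2, -1.12 in CDKB2;1, -0.90 in CDKB1;1 and -0.82 in CDKB2;2, beside -0.17 in CDKA;1. Among A-type cyclins they were -1.03 in CYCA1;1, -0.86 in CYCA2;3, -0.80 in CYCA3;2, -0.55 in CYCA2;4, -0.51 in CYCA3;1, -0.46 in CYCA1;2, -0.44 in CYCA2;2 and 0.18 in CYCA3;4. Among D-type cyclins they were -0.63 in CYCD3;3, -0.62 in CYCD4;1, -0.49 in CYCD1;1, -0.37 in CYCD3;1, -0.22 in CYCD4;2 and -0.18 in CYCD6;1. Among P-type cyclins they were -0.78 in CYCP4;1, -0.35 in CYCP3;2, -0.30 in CYCP4;2 and 0.38 in CYCP1;1. Among the transcriptional and activating kinases and their cyclins they were 0.43 in CDKC;1, 0.26 in CDKD1;1, 0.26 in CYCT1;5, 0.25 in CYCT1;4, 0.21 in CDKD;2, -0.15 in CDKC2 and -0.51 in CDKD1;3. Among inhibitors they were 0.98 in ICK1, 0.85 in SMR1, 0.51 in KRP2, 0.24 in KRP6, -0.32 in KRP3 and -0.62 in SMR4. The values of CYCB2;1, SMR4 and CYCP3;2 are fitted ones with no exact size, since the salt signal of these genes was not well above background on either 5 h array, and that of CYCP3;2 at 0 h was not on any array.

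Opposite calls at the times were made in 7 members and 2 genes found by synonym. Opposite calls among all genes were not counted, so these numbers cannot be set against a share of all genes. CYCA2;3, CYCA2;4, CYCA3;2, CYCB2;3, CDKB2;2, CYCD3;3 and CYCA2;2 were higher at 2 h and lower at 5 h, and ICK1 and CYCT1;5 were lower at 2 h and higher at 5 h. On the Feature Extraction scale the 2 h values of CYCA2;3, CYCA3;2, CDKB2;2 and CYCA2;2 and the 5 h value of CYCT1;5 lay on the other side of 0. The 2 h call of CYCT1;5 (-0.088, adjusted p = 0.0431, limma) was lost with no filter, with the replicate block, with median centring and without any 1 of the 4 arrays, with adjusted p from 0.0647 to 0.621. That of CYCA2;2 was lost without either 2 h array, with no filter and with an offset of 10.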

How the results depend on the processing

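Members called lower at 5 h numbered 27 to 33 in every alternative run, and 27 to 31 in 5 h against 2 h. The count of at least 2-fold falls depended on the scale: 6 at 2 h, 20 at 5 h and 15 in 5 h against 2 h by the Feature Extraction ratio; 4, 20 and 16 with that ratio centred on the median, and 4, 20 and 16 by the deposited log2 values; and 3 in 5 h against 2 h after scaling between arrays. The share of all genes with falls of that size was not counted in these runs. Members higher at 5 h were 7 by the Feature Extraction ratio. Its 2 h values were negative for CYCA2;3 (-0.0054), CYCB3;1 (-0.10), CDKD1;3 (-0.19), CDKB2;2 (-0.027), CYCT1;3 (-0.091), CYCA3;2 (-0.027), CYCP2;1 (-0.0053), CYCT1;2 (-0.08), CDKD;2 (-0.11) and CYCA2;2 (-0.15), as were its 5 h values for CYCT1;4 (-0.19), CDKC2 (-0.0098) and CYCT1;5 (-0.057). In 5 h against 2 h it gave 0.033 for CYCH;1 and -0.016 for SMR7. With it CYCP3;2 (-0.60), CYCP4;2 (-0.52), CDKD;2 (0.20), CDKC2 (-0.14) and CDKA;1 (-0.13) were not called in that comparison. Centred, it gave -0.08 for CDKD1;3 and -0.035 for CYCA2;2 at 2 h, -0.10 for CYCT1;4 at 5 h, and 0.011 for CYCH;1 and -0.039 for SMR7 in 5 h against 2 h; the deposited values gave -0.077, -0.033, -0.10, 0.0065 and -0.043 for these 5. In 5 h against 2 h, scaling between arrays gave 0.019 for CYCD6;1, -0.11 for SIM, -0.096 for KRP7 and -0.095 for KRP5. An offset of 10 gave -0.0057 for CDKD1;3 and -0.012 for CDKD;2 at 2 h, the mean of kept probes gave -0.0038 for CDKD1;3 at 2 h, and median centring gave 0.0011 for CDKC;1 at 2 h. The cause of these turns was not tested.

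Leaving out an array in turn left 33 to 38 members called at 2 h, 36 to 39 at 5 h and 35 to 37 in 5 h against 2 h. At 2 h, values ran from -0.021 to 0.037 for CDKD1;3 and from -0.056 to 0.062 for CDKD;2, and at 5 h from -0.054 to 0.076 for CYCT1;4. In 5 h against 2 h they ran from -0.11 to 0.053 for CYCH;1, from -0.024 to 0.077 for KRP5 and from -0.05 to 0.054 for SMR7. Leaving out either 2 h array ended the 2 h calls of CYCA2;1 (-0.15 to -0.091), CYCA2;2 (0.082 to 0.14) and CYCT1;5 (-0.098 to -0.078), the last also lost without either 5 h array, and leaving out either 5 h array ended the 5 h call of CDKC2 (0.065 to 0.12). Without the first 2 h array, the 2 h rise of CDKB2;2 was 0.10 and not called. Without the other 2 h array, the 2 h values of CYCA2;3 (0.088), CYCA3;2 (0.061), CYCB1;3 (-0.18), CYCB2;1 (-0.10), CYCP4;2 (-0.17) and KRP3 (-0.11) were not called. Without the first 5 h array, CYCA2;4 (-0.17), CYCD3;2 (-0.11) and CYCT1;3 (0.12) were not called at 5 h, and without the other, CYCA2;1 (-0.12) and CYCP3;2 (0.13) were not. Single arrays also decided some calls in 5 h against 2 h. Values there ran from 0.13 to 0.23 for CYCA3;4, from -0.21 to -0.13 for CDKA;1 and from -0.17 to -0.12 for CDKC2. They ran from 0.15 to 0.27 for CDKD;2, from -0.18 to -0.17 for CYCD6;1 and from -0.41 to -0.2 for CYCP4;2. The same held for CYCT1;4, from 0.19 to 0.32.

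The deviations of arrays numbered alike were hardly correlated across genes (r = 0.0583), and the main fit did not pair them. With 2 arrays a time, that check cannot tell whether arrays numbered alike share plants or RNA. With the replicate block, 38 members were called at 2 h, 39 at 5 h and 40 in 5 h against 2 h. A slide or scan block was not run, since all 4 arrays lie on 1 slide with 1 scan. Signal over background limited CYCA2;1, CYCB2;1, CYCP3;2 and SMR4, and a filter for probes bright in both channels on all arrays dropped these genes. With 2 arrays a time, their number limits the precision.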
